A study of Mus musculus with 13 samples.

Results

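The proteasome genes of mature CD4 single-positive (CD4SP) thymocytes were examined across 2 genotypes, with and without antigen stimulation. The members were all protein-coding genes whose symbol begins with Psm, a letter from a to g and a number. This rule found 50 of the 21849 protein-coding genes that had a transcript in the data, and 49 of the 50 were expressed highly enough to be tested. The exception was Psma8, a testis-specific alpha subunit, which did not exceed 4 estimated counts in any library. By role, the rule gathered 8 alpha and 7 beta subunits of the 20S core, 6 ATPases and 11 other subunits of the 19S regulatory particle, the 3 immunosubunits Psmb8, Psmb9 and Psmb10, the PA28 subunits Psme1 and Psme2 with the Psme2 copy Psme2b, the thymoproteasome subunit Psmb11, 3 further activators or inhibitors, 7 assembly chaperones and Psmc3ip, a meiotic recombination factor that shares the symbol but is no subunit.

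The proteasome degrades ubiquitin-tagged proteins to peptides. Its barrel-shaped 20S core carries the cutting sites on the beta subunits Psmb5, Psmb6 and Psmb7, and the 19S particle recognizes, unfolds and feeds in the substrate. In lymphocytes and in cells exposed to interferon, the immunosubunits Psmb8, Psmb9 and Psmb10 take the places of Psmb5, Psmb6 and Psmb7, respectively, and the PA28 cap of Psme1 and Psme2 can replace the 19S particle, which changes the peptides that are made for MHC class I. Psmb11 takes the place of Psmb5 in thymic cortical epithelial cells.

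All mice carried the Lm54 transgene, a T cell receptor specific for a listeriolysin O (LLO) peptide on the MHC class II molecule I-Ab, on a Rag1-/- background, so that all T cells bore this receptor. In CtslΔTEC mice a Foxn1-cre transgene deleted the protease cathepsin L in thymic epithelial cells, the cells that select thymocytes, so that the sorted thymocytes were not the cells in which it was deleted. Controls were labelled Ctsl fl/fl (WT), and the labels gave neither age nor sex. M2 cells, the most mature CD69- MHCI+ CD4SP thymocytes, were sorted from 1 mouse per library by the titles, which number 13 mice. Unstimulated cells came from 5 CtslΔTEC and 4 control mice and carried no treatment label. Stimulated cells, from 2 CtslΔTEC and 2 control mice, were cultured for 4 h in serum-free HL-1 medium on plate-bound LLO:I-Ab at 1 µg/ml with soluble anti-CD28 at 250 ng/ml. No library was labelled as cultured without antigen. All 4 stimulated libraries shared a file date that no unstimulated library had, so that stimulation, culture and date cannot be told apart.

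The unstimulated libraries held 25692380 to 39127833 estimated counts and the stimulated ones 8085463 to 27184520, with the lowest total in control mouse 5. CPM values below are counts scaled to library size with TMM, a correction for the composition of a library, and TPM values, which also correct for transcript length, were used to compare levels between genes. The labelled cell type was visible in Cd4 at 745 to 1156 CPM and Cd3e at 431 to 679 CPM. A list of 8 genes of thymic cortical epithelium summed to 51.2 to 138 CPM, mostly Ly75 (35.5 to 131 CPM), with Epcam at 1.3 to 12.9 CPM and Prss16 at up to 5.53 CPM, whereas its defining genes Foxn1 and Krt8 reached at most 0.078 and 0.11 CPM. A list of 10 genes of the preceding CD4 CD8 double-positive stage summed to 476 to 572 CPM in unstimulated CtslΔTEC cells and 273 to 333 CPM in unstimulated controls, and 7 of its 9 tested genes were higher in CtslΔTEC cells by edgeR, against 6.42% of all genes. Y-linked transcripts summed to 340 to 470 CPM in all 5 unstimulated CtslΔTEC libraries, and to 390 CPM in control mouse 3 but at most 8.38 CPM in the other 3 controls. Of the stimulated mice, CtslΔTEC mouse 7 and control mouse 6 had high Y-linked sums. In bulk RNA, fewer cells that express a gene and less RNA of it per cell cannot be told apart.

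In unstimulated control cells the immunosubunit Psmb8, which carries the chymotrypsin-like site of the immunoproteasome, had the highest level of all members counted one by one, at 335 ± 24.4 TPM (SD, n = 4). The PA28 subunits Psme2, at 318 ± 11.8 TPM, and Psme1, at 278 ± 9.97 TPM, came next. Psmb8 and Psme2 differed by less than the SD of Psmb8, and Psme2 together with its copy Psme2b, at 61.3 TPM, exceeded Psmb8. The split of reads between these copies is uncertain, so that the order of Psmb8 and Psme2 is too. The 31 expressed subunits of the 20S core and 19S particle had mean levels between 27.7 TPM for the ATPase Psmc2 and 202 TPM for the alpha subunit Psma7, with a median of 104 TPM. Psmb5, the constitutive counterpart of Psmb8, was at 123 ± 11.8 TPM. The other constitutive catalytic subunits, Psmb6 at 158 ± 17.9 TPM and Psmb7 at 105.5 ± 7.61 TPM, faced Psmb9 at 66.3 ± 2.68 TPM and Psmb10 at 108 ± 8.01 TPM. On GRCm38, Psmb8 (chr17:34197721-34201454) and Psmb9 (chr17:34181987-34187764) lie close together in the MHC region, Psmb10 on chromosome 8 (chr8:105935735-105938444), Psmb5 on chromosome 14 (chr14:54614119-54618022), Psmb6 on chromosome 11 (chr11:70525367-70527858) and Psmb7 on chromosome 2 (chr2:38588036-38644087). Resting cells thus held more Psmb8 than Psmb5 RNA, less Psmb9 than Psmb6 RNA, and Psmb10 and Psmb7 at about the same level. Psmb11 was barely detected, at 0.42 ± 0.043 TPM, from 33 to 46 estimated counts per library. It lies 3411 bases from Psmb5 on chromosome 14, in the opposite orientation.

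**Figure D1:**
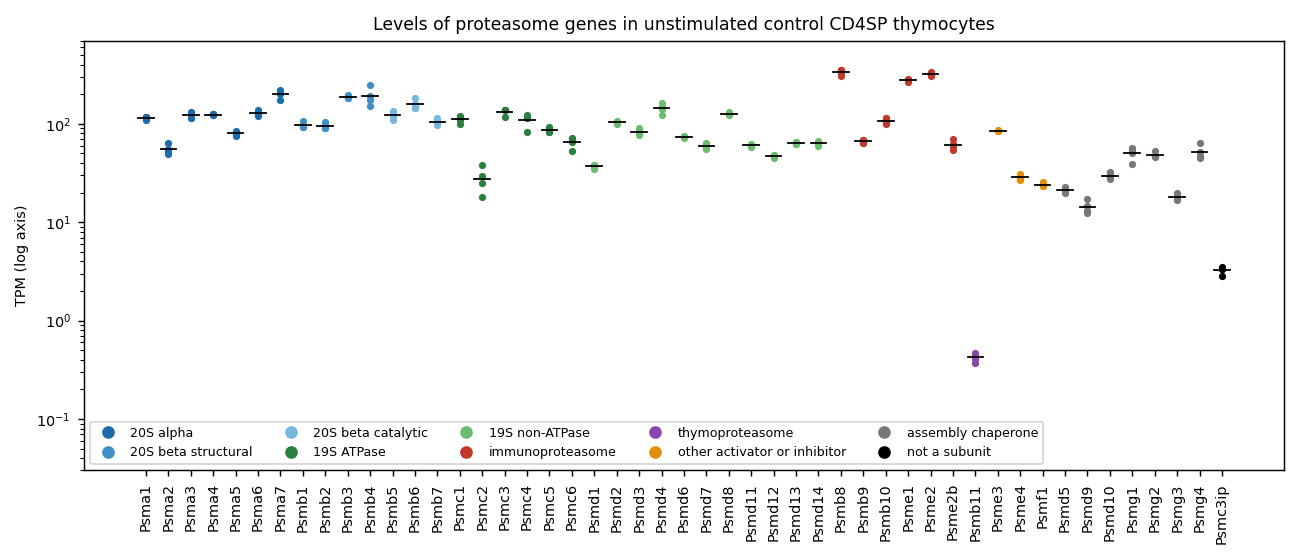
Level of the 49 tested members in the 4 unstimulated control libraries, in TPM on a log axis, with a point per library, a line at the mean and colours for roles. Psmb8, Psme2 and Psme1 stand highest at means of 335, 318 and 278 TPM, and Psmb11 lowest at 0.42 TPM.

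Psmb5 with Psmb8 and Psmb6 with Psmb9 were the counterparts whose ratio differed between unstimulated genotypes, and their promoter windows are therefore shown, each of 300 bases from 250 before to 50 after a RefSeq transcript start on GRCm38.p6, 5′ to 3′ on the strand of the gene. Capitals mark a match to the antioxidant response element core TGACNNNGC, through which Nfe2l1 drives proteasome genes, or to the gamma-activated site core TTCNNNGAA, a motif of interferon gamma responses. The core of the interferon-stimulated response element and the CCAAT box (CCAAT) were searched as well, all 4 motifs on both strands, and the printed windows have no overlapping matches in capitals. The windows of Psmb5 (chr14:54617946-54618245, minus strand) and Psmb6 (chr11:70525107-70525406, plus strand) each hold 1 match to TGACNNNGC, whose first base lies at -47 and -9 from the start. The window of Psmb8 (chr17:34197945-34198244, plus strand) holds 1 match to TTCNNNGAA at -97. That of Psmb9 (chr17:34187281-34187580, minus strand) holds neither of these motifs and no interferon-stimulated response element core. A CCAAT match on the other strand lies at -8 in the Psmb9 window and is not in capitals. The Psmb8 and Psmb9 windows lie wholly inside the gene coordinates given above. The bases before the annotated 5′ ends of these genes were thus not searched.
Psmb5: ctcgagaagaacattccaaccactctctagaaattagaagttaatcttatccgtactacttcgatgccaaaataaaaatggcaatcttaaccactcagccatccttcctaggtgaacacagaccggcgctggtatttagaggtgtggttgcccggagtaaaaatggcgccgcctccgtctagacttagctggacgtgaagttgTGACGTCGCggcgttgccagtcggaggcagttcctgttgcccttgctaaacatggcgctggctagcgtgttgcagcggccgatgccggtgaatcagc
Psmb6: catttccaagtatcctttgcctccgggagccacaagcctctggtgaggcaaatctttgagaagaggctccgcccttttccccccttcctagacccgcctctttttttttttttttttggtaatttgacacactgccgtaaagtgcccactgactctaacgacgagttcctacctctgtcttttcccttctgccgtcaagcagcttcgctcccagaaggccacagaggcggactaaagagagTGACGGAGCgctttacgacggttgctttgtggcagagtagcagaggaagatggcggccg
Psmb8: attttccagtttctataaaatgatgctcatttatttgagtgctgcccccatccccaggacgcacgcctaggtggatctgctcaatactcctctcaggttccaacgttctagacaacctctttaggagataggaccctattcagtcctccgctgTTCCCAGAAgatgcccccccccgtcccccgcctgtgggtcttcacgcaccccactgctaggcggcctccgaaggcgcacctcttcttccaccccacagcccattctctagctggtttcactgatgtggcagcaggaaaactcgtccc
Psmb9: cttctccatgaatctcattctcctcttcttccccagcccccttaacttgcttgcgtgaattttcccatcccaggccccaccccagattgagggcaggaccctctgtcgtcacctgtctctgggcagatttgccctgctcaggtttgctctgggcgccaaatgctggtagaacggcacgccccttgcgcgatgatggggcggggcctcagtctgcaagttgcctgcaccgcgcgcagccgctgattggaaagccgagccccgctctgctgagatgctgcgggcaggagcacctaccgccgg

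RefSeq windows were found for 42 of the 50 members, 45 windows in all. TGACNNNGC was present in 4 of the 27 windows of constitutive 20S and 19S subunits (Psmb5, Psmb6, Psmc6 and Psmd12) and in 12.39% of all 32851 promoter windows of the table. TTCNNNGAA was present in 3 of the 45 windows (Psmb8, Psmd2 and Psmg1) and in 8.298% of all windows. The interferon-stimulated response element core was present in 5 of the 45 (Psmb3, Psmd4, Psmd9, Psme1 and Psmg4) and in 3.443% of all windows, and in none of the 3 windows of Psmb8, Psmb9 and Psmb10. CCAAT was present in 10 of the 27 constitutive subunit windows and in 37.41% of all windows. These matches describe letters within the windows, and the absence of a match says nothing about sites outside them.

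With stimulation every expressed subunit of the 20S core and of the 19S particle rose, and the 3 immunosubunits fell. Of the 49 members tested in control cells, 40 rose and 4 fell (81.6% and 8.16%), against 32.9% of all 14241 genes that rose and 34.8% that fell, together 67.7% (edgeR quasi-likelihood test, Benjamini-Hochberg adjusted p under 0.1). All 31 expressed core and regulatory subunits were among those that rose, and the values of stimulated and unstimulated libraries did not overlap for 29 of them. Over all members 40 lay higher and 4 lower without overlap, against 33.4% and 36% of all genes. In CtslΔTEC cells 40 members rose and 5 fell, against 32.9% and 38.2% of all genes, together 71.2%, and again all 31 subunits rose, 30 of them without overlap. There 39 members lay higher and 5 lower without overlap, against 33.8% and 38.3% of all genes. The median log2 fold change of the members was 0.77 in control and 0.75 in CtslΔTEC cells, compared with 0.01 and -0.06 over all genes tested. Both responses rest on 2 stimulated libraries per genotype, and 26 of the 31 subunits still rose without control mouse 5 and 27 without CtslΔTEC mouse 6. With scaling by library totals 30 rose in control and 29 in CtslΔTEC cells. All 9 genes of an activation list rose as well in either genotype, from a summed 350 to 811 CPM to 12064 to 14837 CPM. Genes of other cells moved too. The double-positive list summed to 124.7 to 183 CPM after stimulation, erythroid genes went from 43.2 to 174 CPM to 2.71 to 18.8 CPM, and Ighm from 332 to 383 CPM to 18.3 to 37.7 CPM, while the B cell genes Cd79a, Cd79b, Ms4a1 and Pax5 each stayed at or below 0.81 CPM. A myeloid list of 10 genes summed to 13.1 to 24.3 CPM before and 22.6 to 43.8 CPM after stimulation, ranges that overlapped, with Cd74 at 0.53 to 4.46 CPM before and 12.5 to 17.9 CPM after but Itgam at 5.28 to 12.3 CPM before and 1.06 to 2.60 CPM after. The part of these genes in the responses was not tested.

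**Figure D2:**
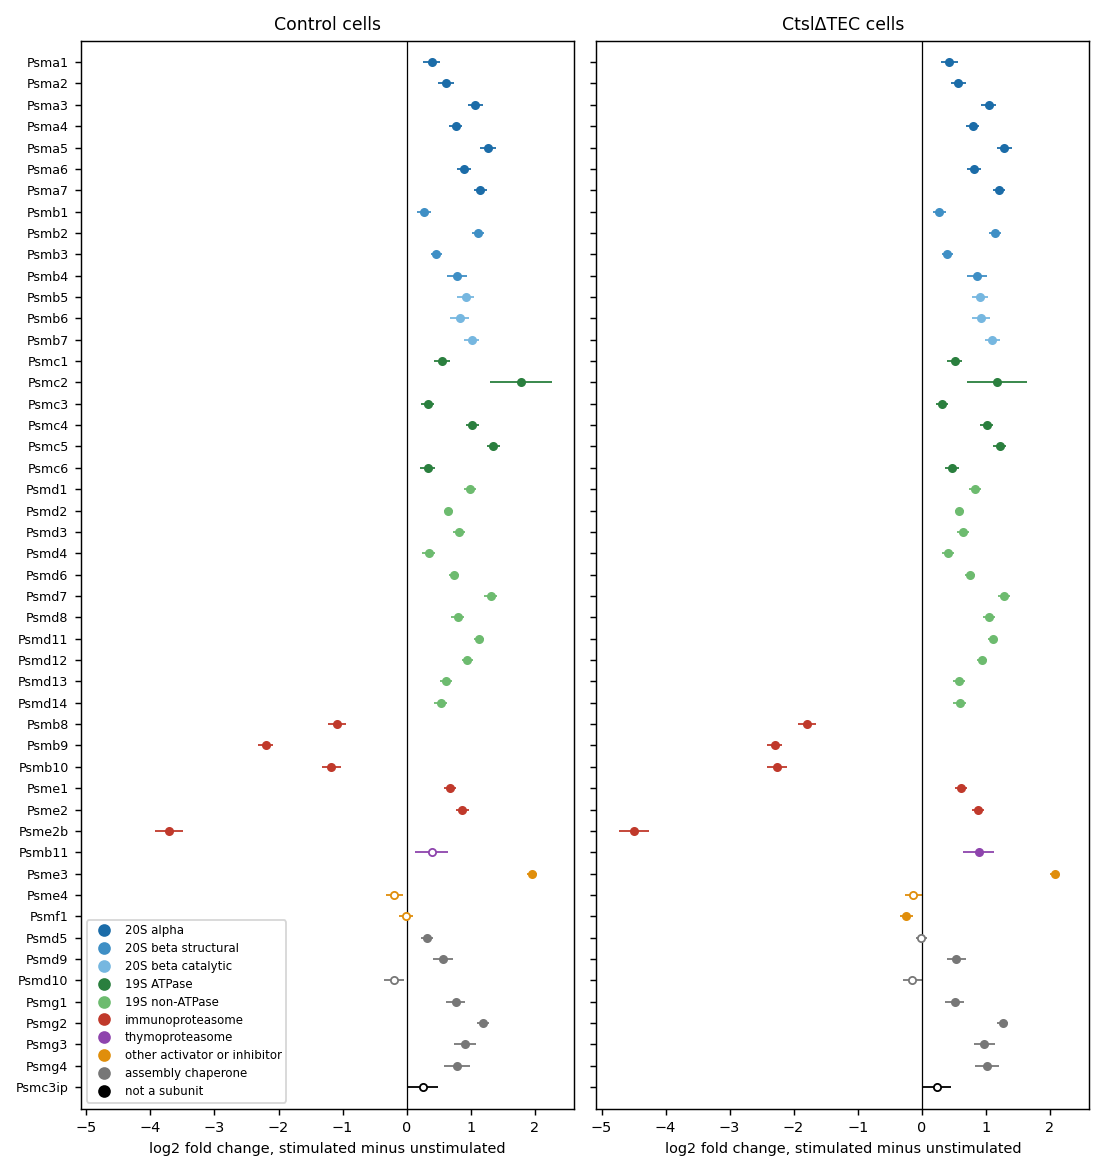
Log2 fold change, stimulated minus unstimulated, of the 49 tested members in control cells (left) and CtslΔTEC cells (right), with horizontal bars for 1 standard error, filled points for an adjusted p under 0.1 and open points for the rest. The blue and green core and regulatory subunits lie right of 0 in both panels, at medians of 0.82 and 0.83, whereas Psmb8, Psmb9, Psmb10 and Psme2b lie left of 0.

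Among the 20S subunits the rise in control cells ranged from 0.28 on the log2 scale for the structural subunit Psmb1 to 1.27 (SE 0.12) for the alpha subunit Psma5, with a median of 0.86 over the 14 subunits. Psma5 stood at 58.3, 58.9, 55.0 and 66.7 CPM in unstimulated control mice 1 to 4 and at 167 and 122 CPM in stimulated control mice 5 and 6. In CtslΔTEC cells it stood at 46.1 to 57.0 CPM without and at 131 CPM in both libraries with stimulation, a rise of 1.29 (SE 0.11). The stimulated values of Psma5 lay above all unstimulated ones in both genotypes. Summed over the 14 constitutive subunits, the level went from 1598 to 1948 TPM in the 9 unstimulated libraries to 2768 to 3196 TPM in the 4 stimulated ones.

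The 3 constitutive catalytic subunits rose to a similar degree. Psmb5, which carries the chymotrypsin-like site, went from 54.5, 52.0, 62.3 and 66.1 CPM in unstimulated to 131 and 92.8 CPM in stimulated control mice, a log2 change of 0.92 (SE 0.13). In CtslΔTEC mice it went from 51.3, 41.7, 43.5, 46.2 and 49.7 CPM to 83.1 and 91.1 CPM, a change of 0.91 (SE 0.13). Psmb6, with the caspase-like site, rose by 0.83 (SE 0.15) in control and 0.93 (SE 0.14) in CtslΔTEC cells, and Psmb7, with the trypsin-like site, by 1.02 (SE 0.12) and 1.10 (SE 0.11). No library of these 3 genes crossed between the stimulated and unstimulated groups.

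All 17 subunits of the 19S particle rose, with a median log2 change of 0.80 in control and 0.75 in CtslΔTEC cells. In control cells, after Psmc2, the largest changes were those of the ATPase Psmc5, at 1.35 (SE 0.10) and 1.22 (SE 0.10), and of the lid subunit Psmd7, at 1.31 (SE 0.10) and 1.28 (SE 0.09), with the value in CtslΔTEC cells given second. Psmd7 stood at 57.2, 56.4, 56.7 and 66.2 CPM in unstimulated and at 161 and 133 CPM in stimulated control mice. The ubiquitin receptor Psmd4 was among the least changed, at 0.35 (SE 0.10) and 0.41 (SE 0.10). The summed level of the 17 subunits went from 1291 to 1456 TPM to 2179 to 2375 TPM.

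The ATPase Psmc2 was the exception in its spread. Unstimulated CtslΔTEC mice had 29.3, 41.4, 12.8, 57.3 and 20.7 CPM and unstimulated control mice 44.4, 22.7, 34.8 and 31.6 CPM, and after stimulation CtslΔTEC mice 6 and 7 had 115 and 32.0 CPM and control mice 5 and 6 had 131 and 99.7 CPM. The groups overlapped in CtslΔTEC cells. The log2 change was 1.78 in control cells, with a standard error of 0.48, and 1.18 in CtslΔTEC cells, with a standard error of 0.47, against standard errors of at most 0.16 for the other 30 subunits.

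The immunosubunits fell. Psmb8 stood at 188, 177, 204 and 223 CPM in unstimulated control mice and at 108 and 79.3 CPM after stimulation, 2.12-fold lower (log2 change -1.09, SE 0.14, edgeR adjusted p = 6.07e-06). In CtslΔTEC mice it stood at 226, 191, 185, 208 and 224 CPM and then at 56.4 and 63.5 CPM, 3.45-fold lower (-1.79, SE 0.14). All 4 stimulated libraries were below all 9 unstimulated ones. By mean TPM of members counted one by one, Psmb8 had rank 1 in resting cells, where its order with Psme2 is uncertain. It moved to rank 22 of 49 in stimulated control and rank 32 in stimulated CtslΔTEC cells.

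Psmb9, with the caspase-like position of the immunoproteasome, fell most among the 3 in control cells. It stood at 47.4, 50.1, 52.0 and 55.8 CPM in unstimulated and at 10.99 and 11.26 CPM in stimulated control mice, 4.60-fold lower (-2.20, SE 0.12). In CtslΔTEC mice it stood at 63.4, 57.9, 52.3, 52.1 and 60.3 CPM and then at 10.8 and 12.4 CPM, 4.91-fold lower (-2.30, SE 0.12). The stimulated levels of both genotypes lay within a narrow band, far below every unstimulated library.

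Psmb10, the trypsin-like immunosubunit, stood at 57.7, 65.9, 66.9 and 71.9 CPM in unstimulated control mice and at 33.2 and 25.6 CPM after stimulation, 2.26-fold lower (-1.17, SE 0.15). In CtslΔTEC mice it stood at 65.0, 56.8, 49.3, 58.7 and 66.0 CPM and then at 10.9 and 13.6 CPM, 4.80-fold lower (-2.26, SE 0.16). The stimulated CtslΔTEC values were the lowest of the 13 libraries.

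**Figure D3:**
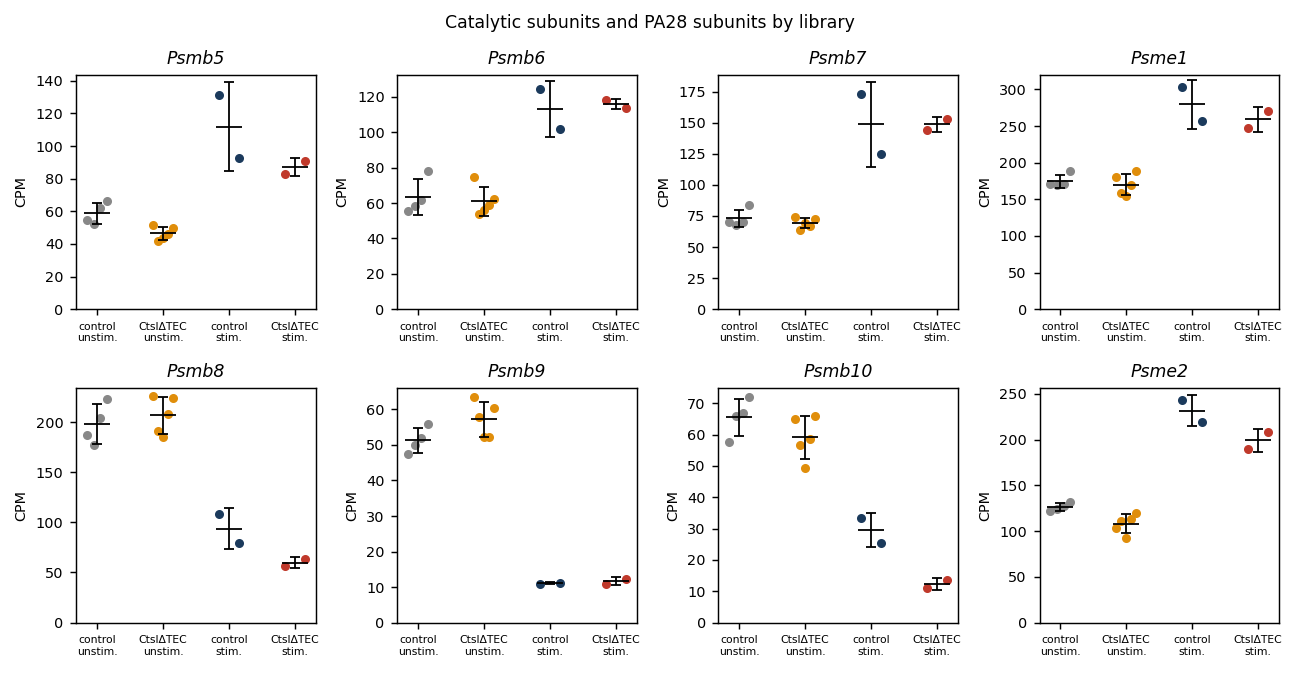
CPM by library of the constitutive catalytic subunits (Psmb5, Psmb6, Psmb7), their immunosubunit counterparts (Psmb8, Psmb9, Psmb10) and the PA28 subunits (Psme1, Psme2) in the 4 groups, with a point per mouse and bars for the mean ± SD; each axis starts at 0. With stimulation the constitutive and PA28 subunits lie higher and the immunosubunits lower, and Psmb10 is at 10.9 and 13.6 CPM in stimulated CtslΔTEC cells against 33.2 and 25.6 CPM in stimulated controls.

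The PA28 subunits, often listed with the immunosubunits because interferon raises both, moved the other way. Psme1 went from 170, 170, 170 and 188 CPM to 303 and 256 CPM in control mice (0.68, SE 0.10) and from 154 to 188 CPM to 247 and 271 CPM in CtslΔTEC mice (0.61, SE 0.10). Psme2 went from 122, 124, 127 and 132 CPM to 244 and 219 CPM in control mice (0.87, SE 0.10) and from 92.4 to 119 CPM to 190 and 208 CPM in CtslΔTEC mice (0.88, SE 0.09). For both genes every stimulated library exceeded every unstimulated one. Of the 5 genes usually named as the immunoproteasome, therefore, 2 rose and 3 fell in each genotype.

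Psme2b, a Psme2 copy on chromosome 11, went from 24.0 to 30.1 CPM in the 9 unstimulated libraries to 0.63 and 1.64 CPM in stimulated CtslΔTEC and 2.12 and 1.98 CPM in stimulated control mice. This was a fall of 3.71 (SE 0.22) in control and 4.50 (SE 0.23) in CtslΔTEC cells on the log2 scale. Stimulated CtslΔTEC mice 6 and 7 held only 7 and 26 estimated counts of it. Leaving out 1 mouse gave log2 changes of -5.45 to -4.07 in CtslΔTEC and -3.76 to -3.66 in control cells. Psme2b shares 76.5% of its 31-base words with Psme2, and Psme2 66.2% with Psme2b, so that the split of reads between both copies is uncertain. With the counts of both copies summed, the pair still rose, by 0.61 in control and 0.57 in CtslΔTEC cells. Psme2b also lies wholly within Gm12185 on the same strand, which was at 1.18 to 2.59 TPM in unstimulated and 0.065 to 1.42 TPM in stimulated libraries.

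The largest rise of any member was that of Psme3, the gene of PA28γ, a nuclear activator of the 20S core. It stood at 136, 146, 147 and 150 CPM in unstimulated and 577 and 554 CPM in stimulated control mice, 3.90-fold higher (1.96, SE 0.07, edgeR adjusted p = 1.82e-11). In CtslΔTEC mice it stood at 128 to 145 CPM and then at 575 and 570 CPM, 4.22-fold higher (2.08, SE 0.07). Its 4 stimulated libraries lay within a span of 554 to 577 CPM. By contrast, the other nuclear activator Psme4 (PA200) did not pass the test in either genotype (-0.19, SE 0.13, and -0.13, SE 0.13). The inhibitor Psmf1 had a change of -0.01 (SE 0.10) in control cells and fell by 0.24 (SE 0.10, edgeR adjusted p = 0.0456) in CtslΔTEC cells, a call that was lost without CtslΔTEC mouse 2 or 6, with DESeq2, with at least 10 counts required in every library and with mouse number as a block.

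Of the 7 assembly chaperones, 6 rose in control and 5 in CtslΔTEC cells, against 32.9% of all genes in each genotype. Psmg2, which pairs with Psmg1 to assemble the alpha ring, went from 26.4, 27.5, 30.4 and 28.8 CPM to 65.1 and 64.2 CPM in control mice (1.19, SE 0.09) and from 23.8 to 27.9 CPM to 57.2 and 65.8 CPM in CtslΔTEC mice (1.26, SE 0.09). Psmg1 rose less, by 0.77 (SE 0.15) and 0.52 (SE 0.15). Psmd10 (gankyrin), a chaperone of the 19S base, passed the test in neither genotype (-0.20, SE 0.16, and -0.15, SE 0.15), and Psmd5, another chaperone of the base, rose by 0.32 (SE 0.09) in control cells but had a change of -0.01 (SE 0.09) in CtslΔTEC cells. The difference between both Psmd5 responses did not pass its own test (-0.33, SE 0.13, edgeR adjusted p = 0.197). Psmb11 rose in CtslΔTEC cells, from 1.12 to 1.57 CPM to 2.17 and 2.72 CPM (0.89, SE 0.24), and did not pass the test in control cells (0.40, SE 0.26). Psmc3ip passed in neither (0.26, SE 0.24, and 0.23, SE 0.22).

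The balance of immunosubunit and constitutive subunit RNA was followed within each library as the ratio of their TPM. In control cells the Psmb8 to Psmb5 ratio was 2.78, 2.80, 2.63 and 2.74 before and 0.666 and 0.650 after stimulation, a 4.16-fold fall between geometric means. In CtslΔTEC cells it was 3.55, 3.62, 3.31, 3.58 and 3.68 before and 0.50 and 0.53 after, a 6.89-fold fall. Psmb8 RNA exceeded Psmb5 RNA in all 9 unstimulated libraries and lay below it in all 4 stimulated ones.

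The Psmb9 to Psmb6 ratio fell 7.86-fold in control cells, from 0.371 to 0.443 to 0.0441 and 0.0650, and 8.5-fold in CtslΔTEC cells, from 0.474 to 0.594 to 0.0561 and 0.0652. The Psmb10 to Psmb7 ratio fell 4.46-fold in control cells, from 0.940 to 1.10 to 0.226 and 0.231, and 9.75-fold in CtslΔTEC cells, from 0.855 to 1.06 to 0.0986 and 0.1001. No stimulated ratio reached an unstimulated one. The 3 immunosubunits together went from 470 to 569 TPM to 115 and 130 TPM in stimulated CtslΔTEC and 226 and 180 TPM in stimulated control mice, while Psmb5, Psmb6 and Psmb7 together went from 311 to 428 TPM to 612 to 744 TPM.

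**Figure D4:**
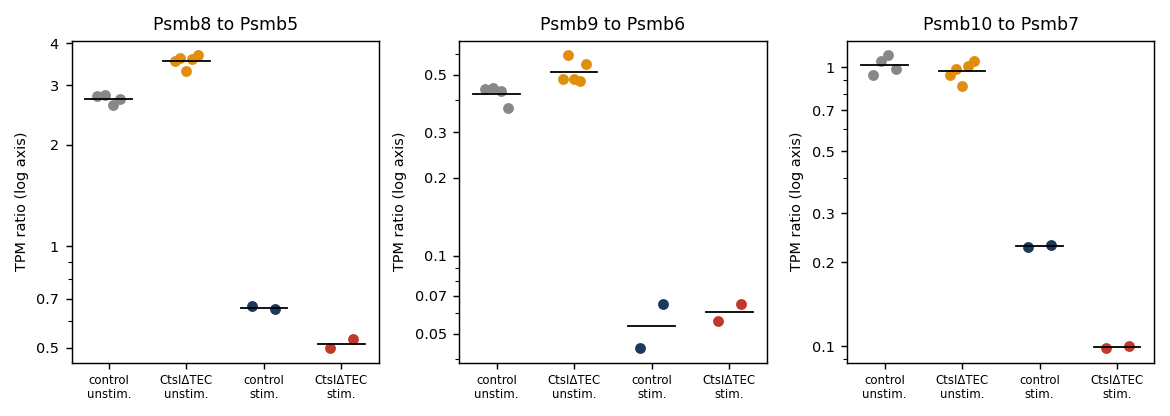
TPM ratio of each immunosubunit to its constitutive counterpart by library in the 4 groups, on log axes, with a point per mouse and a line at the geometric mean. Stimulated libraries lie lowest in all 3 panels, and without stimulation the 5 CtslΔTEC libraries lie above the 4 controls for Psmb8 to Psmb5 (3.31 to 3.68 against 2.63 to 2.80) and Psmb9 to Psmb6.

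Part of these gene sums came from transcripts annotated as retained introns. They made up 37.6% to 46.3% of the Psmb8 counts in unstimulated and 42.4% to 64.1% in stimulated libraries, 33.9% to 46.1% and 37.5% to 63.4% of those of Psmb9, and 11.3% to 19.4% and 14.3% to 21.9% of those of Psmb10. Without stimulation the Psmb8 share was 42.0% to 46.3% in CtslΔTEC and 37.6% to 41.0% in control libraries, without overlap. The Psmb9 share was 37.9% to 46.1% against 33.9% to 40.5%, with overlap. Psmb5 has no such transcript, whereas in Psmb6 the share was 12.3% to 19.2% in unstimulated libraries. The part of these shares in the genotype ratios below was not tested. Of the Psmb8 TPM in unstimulated control cells, 63.0% ± 0.59 (SD, n = 4) came from the coding transcript Psmb8-203. Its effective length, the one used for TPM, averaged 559 bases over the libraries, and short transcripts weigh more in TPM than in counts. Psmb9 overlaps 212 bases of Tap1 on the opposite strand. Antisense genes overlap Psmb8 and Psmb10 and are not analysed here, and whether the libraries keep the strand is not given in the sources used here, so that reads from either strand cannot be told apart.

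Without stimulation few of these genes differed between the 2 genotypes. Of the 49 members, 4 (8.16%) were lower in CtslΔTEC than in control cells and 0 were higher by edgeR, against 8.36% of all 13152 genes lower and 6.42% higher, together 14.8%. The share of members was thus near that of all genes in the lower direction and below it in all. DESeq2 called 4 lower and 1 higher. At an unadjusted p under 0.05 edgeR gave 6 lower and 1 higher (Psmc3ip), and the matching share of all genes is not given here. Without overlap between the groups 7 members lay lower and 0 higher, against 7.92% and 5.95% of all genes. Log2 differences were negative for 28 of the 31 expressed core and regulatory subunits, with a median of -0.09 compared with 0.01 over all genes.

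Psmb5 showed the largest of the 4 differences. It stood at 51.3, 41.7, 43.5, 46.2 and 49.7 CPM in CtslΔTEC mice and at 54.5, 52.0, 62.3 and 66.1 CPM in controls, a log2 difference of -0.33 (SE 0.09, edgeR adjusted p = 0.036). The alpha subunit Psma1 stood at 59.2, 73.6, 67.0, 71.3 and 66.6 CPM against 80.0, 82.5, 75.1 and 86.6 CPM (-0.26, SE 0.07, adjusted p = 0.0387). In both genes every CtslΔTEC library was below every control. The 19S lid subunit Psmd8 stood at 86.5, 79.3, 77.4, 77.0 and 73.9 CPM against 87.4, 97.1, 88.4 and 106.2 CPM (-0.26, SE 0.07, adjusted p = 0.0422), and Psme2 at 104, 111, 92.4, 113 and 119 CPM against 122, 124, 127 and 132 CPM (-0.23, SE 0.07, adjusted p = 0.0784). Neither gene overlapped between groups, but the highest CtslΔTEC and the lowest control library were close in both. Leaving out 1 mouse ended the Psmb5 call without control mouse 3, the Psma1 call without control mouse 2, the Psmd8 call without CtslΔTEC mouse 5 or control mouse 2 or 4, and the Psme2 call without any mouse but CtslΔTEC mouse 5, at edgeR adjusted p-values of 0.102 to 0.162. With Psme2 and Psme2b summed, the Psme2 difference was -0.18 (edgeR adjusted p = 0.156). The Psme2 call was also lost with library totals, upper-quartile factors, no low-count filter or effective-length offsets (edgeR adjusted p = 0.103 to 0.355). With mouse number as a block Psma1, Psmd8 and Psme2 did not pass (edgeR adjusted p = 0.138, 0.238 and 0.137). Psma1 did not pass in a 4-group model either (edgeR adjusted p = 0.152).

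With the mean log2 CPM of the Y-linked genes as a covariate none of the 4 members passed. Psmb5 (-0.40, edgeR adjusted p = 0.299) and Psme2 (-0.23) did not become smaller, unlike Psma1 (-0.16) and Psmd8 (-0.15). Y-linked RNA was high in every unstimulated CtslΔTEC mouse but only in control mouse 3, so that it and genotype can hardly be told apart. With file date as a factor all 4 passed. Within the second file date alone, 3 against 3 mice, Psmb5 (-0.29) and Psmd8 (-0.24) still passed and Psma1 (-0.17) and Psme2 (-0.12) did not. The double-positive stage genes given above differed in the same libraries, and their part in these differences was not tested.

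None of the 3 immunosubunits passed this edgeR test between unstimulated genotypes. The log2 difference was 0.07 (SE 0.09) for Psmb8, 0.16 (SE 0.08) for Psmb9 and -0.15 (SE 0.09) for Psmb10. Relative to their counterparts, however, 2 of the 3 did differ. The Psmb8 to Psmb5 ratio was 3.55 ± 0.14 (SD, n = 5) in CtslΔTEC and 2.74 ± 0.078 (SD, n = 4) in control cells, a log2 difference of 0.37 with no overlap (two-sided exact permutation p = 0.0159, the smallest this design allows, and 0.0238 after adjustment over the 3 ratios). The Psmb9 to Psmb6 ratio was 0.516 ± 0.054 (n = 5) against 0.422 ± 0.034 (n = 4), a log2 difference of 0.29 with the same exact p-values and again no overlap. Within the second date alone the differences were 0.41 and 0.29, where 3 against 3 mice cannot reach the threshold. With protein-coding transcripts alone the latter was 0.16 (adjusted exact p = 0.19). The Psmb10 to Psmb7 ratio was 0.970 ± 0.077 (n = 5) against 1.02 ± 0.072 (n = 4), and its groups overlapped (exact p = 0.349).

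**Figure D5:**
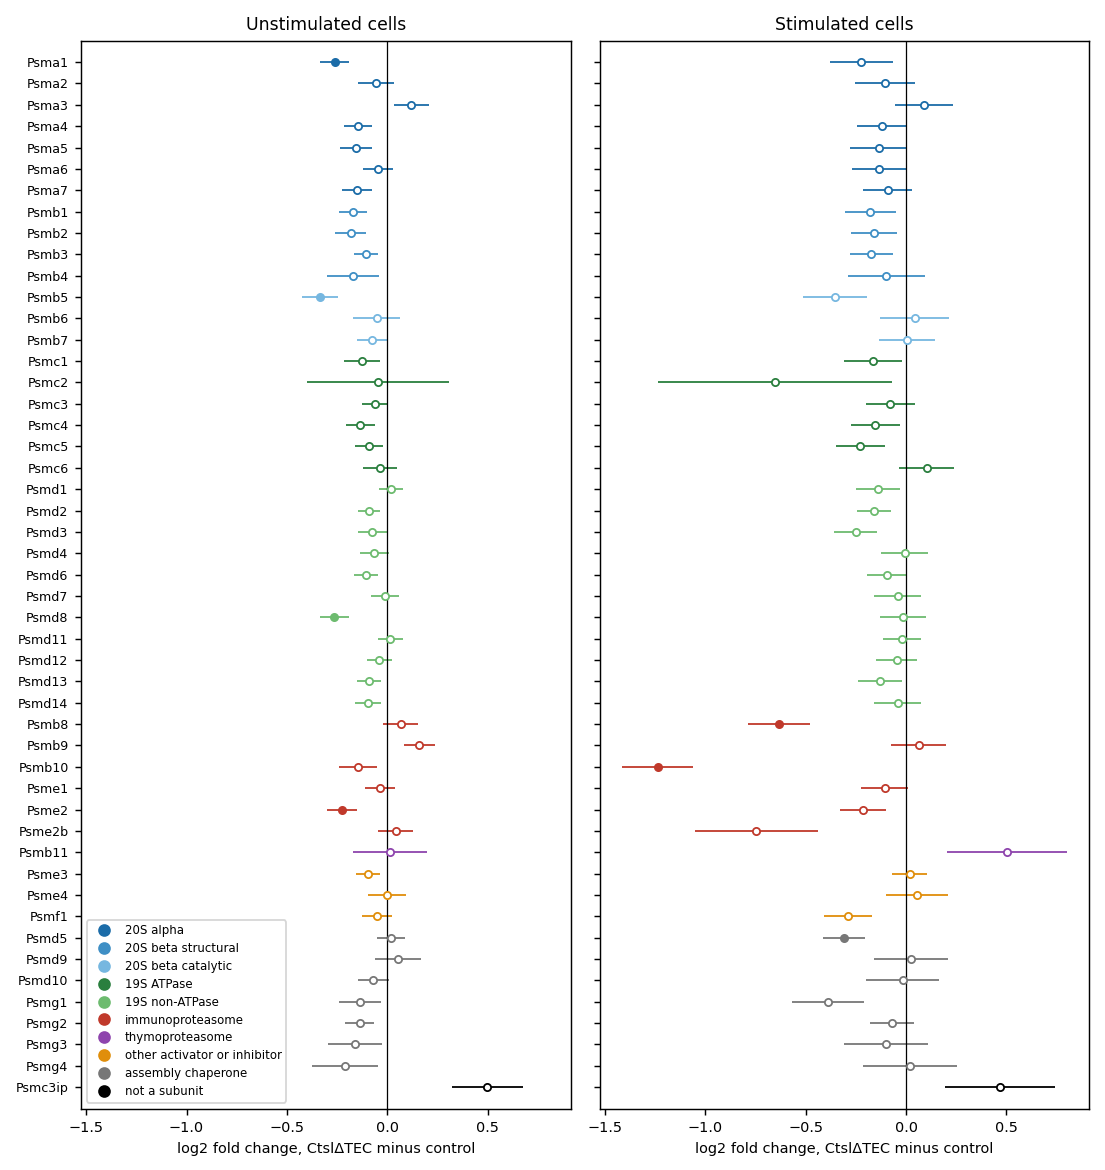
Log2 difference, CtslΔTEC minus control, of the 49 tested members in unstimulated (left) and stimulated cells (right), with horizontal bars for 1 standard error, filled points for an adjusted p under 0.1 and open points for the rest. Without stimulation Psmb5, Psma1, Psmd8 and Psme2 are filled at -0.33 to -0.23, and with stimulation Psmb10, Psmb8 and Psmd5 are filled at -1.24, -0.63 and -0.31, while Psme2b and Psmc2 are open at -0.75 and -0.65 with wider bars.

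After stimulation few members passed between genotypes. Of the 49 members 3 (6.12%) were lower in CtslΔTEC cells and 0 higher by edgeR, against 10.6% and 2.77% of all genes, together 13.3%, so that the share of members was below that of all genes. DESeq2 gave the same counts. At an unadjusted p under 0.05 edgeR gave 8 lower and 0 higher, and the share of all genes at that threshold is not given here. Of the 31 core and regulatory subunits 0 passed by either tool, and 2 (Psmb5 and Psmd3) were lower at an unadjusted p under 0.05. Without overlap 14 members lay lower and 2 higher, against 30.2% and 19.4% of all genes. Psmb10 stood at 10.9 and 13.6 CPM in CtslΔTEC mice and at 33.2 and 25.6 CPM in controls, 2.36-fold lower (-1.24, SE 0.18, edgeR adjusted p = 0.000666). Psmb8 stood at 56.4 and 63.5 CPM against 108 and 79.3 CPM, 1.55-fold lower (-0.63, SE 0.15, adjusted p = 0.0185), a call that was lost without CtslΔTEC mouse 6 or control mouse 5 and with mouse number as a block (-0.49, edgeR adjusted p = 0.366). Both genes were lower in either CtslΔTEC library than in either control. Psmb9, at 10.8 and 12.4 CPM against 10.99 and 11.26 CPM, gave a difference of 0.06 (SE 0.14). The third gene that passed was Psmd5, at 54.4 and 52.0 CPM against 67.6 and 64.3 CPM (-0.31, SE 0.10, adjusted p = 0.0839), a call that was lost when any 1 of the 4 stimulated mice was left out. Between the same stimulated groups the double-positive list summed to 172 and 183 CPM in CtslΔTEC and 133 and 124.7 CPM in control mice, with 3 of 10 genes higher by edgeR. The myeloid list summed to 24.3 and 22.6 CPM against 30.97 and 43.8 CPM, with Itgax, at 0.45 and 1.07 CPM against 6.22 and 15.4 CPM, the 1 of 9 tested genes that was lower. The activation list summed to 14732 and 14837 CPM against 12064 and 13684 CPM, with Il2, at 3.07 and 5.75 CPM against 54.4 and 50.7 CPM, the 1 of 9 genes that passed (lower). None of the 3 lists overlapped between the groups, and their part in the differences was not tested.

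The responses themselves were compared by the interaction of genotype and stimulation, which passed for 0 members in the positive and 2 in the negative direction, against 1.13% and 4.88% of all genes, together 6.01%. By DESeq2 it was also 0 and 2. At an unadjusted p under 0.05 edgeR gave 0 and 4, without a share of all genes at that threshold to compare with. The 2 calls after adjustment were Psmb10, whose log2 response was more negative in CtslΔTEC cells by -1.09 (SE 0.20, edgeR adjusted p = 0.0136), and Psmb8, by -0.70 (SE 0.18, adjusted p = 0.0522). With mouse number as a block neither passed (-1.03 and -0.52, edgeR adjusted p = 0.244 and 0.460). For Psmb9 the difference of responses was -0.09 (SE 0.16), and for Psmb5, Psmb6 and Psmb7 it was -0.02 (SE 0.19), 0.10 (SE 0.21) and 0.08 (SE 0.17). The 2 calls are 4.08% of the 49 members, near the share of all genes. No difference in the fall of Psmb9 was detected at this depth.

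The 2 stimulated control libraries were not alike. Control mouse 5, the shallowest library, had higher CPM than control mouse 6 for all 31 core and regulatory subunits and for 45 of the 49 members. The Psmb8 calls were lost when 1 of several mice was left out. Without control mouse 5 the stimulated difference was -0.41 (edgeR adjusted p = 0.205) and the interaction -0.47 (adjusted p = 0.273), and without CtslΔTEC mouse 6 the stimulated difference was -0.555 (adjusted p = 0.152) and the interaction -0.62 (adjusted p = 0.232). The interaction was also lost without control mouse 1 (adjusted p = 0.106). Psmb10 passed in both comparisons whichever single mouse was left out. In TPM ratios, in which a scale factor of the library cancels, both control mice were close, with Psmb8 to Psmb5 at 0.666 and 0.650 against 0.50 and 0.53 in CtslΔTEC mice, and Psmb10 to Psmb7 at 0.226 and 0.231 against 0.0986 and 0.1001. With 2 against 2 mice an exact test cannot go below p = 0.333, and none was made.

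Around the subunits, a list of 31 genes of proteasome assembly, transcriptional control and ubiquitin delivery was followed, of which 30 could be tested. With stimulation 16 rose and 5 fell in control cells, against 32.9% and 34.8% of all genes, and 20 rose and 5 fell in CtslΔTEC cells, against 32.9% and 38.2%. Between genotypes 0 passed by edgeR without or with stimulation, against 14.8% and 13.3% of all genes. Of the list 3 and 2 had an unadjusted p under 0.05, a threshold for which no share of all genes is given here. Pomp, the chaperone that matures the 20S core, rose by 1.14 (SE 0.12) in control and 1.31 (SE 0.11) in CtslΔTEC cells. Nfe2l1, the transcription factor that restores proteasome genes when the proteasome is short, rose by 0.99 (SE 0.09) and 1.13 (SE 0.08). The ubiquitin-activating enzyme Uba6 rose most (1.41, SE 0.32, and 1.89, SE 0.30), followed by the shuttle factor Ubqln4 (1.23 and 1.37). Of the genes that fell, Midn, a carrier of unmodified nuclear proteins to the proteasome, showed -1.70 (SE 0.17) and -1.39 (SE 0.16), and Ngly1, which processes the Nfe2l1 protein, -1.36 (SE 0.11) and -1.53 (SE 0.11). The shuttle factor Ubqln2 fell by 1.17 and 1.47.

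Interferon-linked genes of antigen presentation, which include neighbours of the immunosubunit genes, moved in both directions. Of 10 listed, 6 (among them Irf1, Tap1, Tap2, Nlrc5 and Tapbp) fell and 4 (Irf8, Socs1, B2m and Erap1) rose with stimulation in each genotype, 10 of 10 in all, against 67.7% and 71.2% of all genes called in control and CtslΔTEC cells. Irf1, a transcription factor of the interferon response that acts on immunoproteasome genes, went from 125 to 162 CPM in unstimulated control mice to 25.7 and 22.1 CPM (-2.57, SE 0.14) and from 124 to 152 CPM to 14.99 and 19.35 CPM in CtslΔTEC mice (-3.01, SE 0.15). Tap1, the peptide transporter gene that adjoins Psmb9, fell by 1.69 (SE 0.11) and 1.71 (SE 0.11), and Tap2 by 0.65 (SE 0.11) and 0.88 (SE 0.11). After stimulation Irf1 was lower in CtslΔTEC than in control cells (-0.46, SE 0.16, edgeR adjusted p = 0.0849), whereas Nlrc5 (0.69, SE 0.17), B2m (0.44, SE 0.13) and Irf8 (0.91, SE 0.15) were higher. Without stimulation Tap1 (0.22, SE 0.07) and B2m (0.34, SE 0.09) were higher in CtslΔTEC cells.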

How the data were processed

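RNA from sorted M2 CD4SP thymocytes, 13 libraries of as many mice by the titles, was quantified by the authors with kallisto 0.48 against Ensembl transcripts, and the deposited files give estimated counts, not normalized, and TPM per transcript. Library size in TPM is scaled away. Labels gave genotype, stimulation and mouse number, and columns of other samples numbered 0. Strandedness is not given in the sources used here. The labels name polyadenylated RNA and fl/fl controls, the methods rRNA depletion and +/+ controls.

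Of 117497 transcripts, 116397 were paired with a gene through GENCODE M21 (GRCm38), and the rest took 0.461% of a library's counts or less. Gene values are sums over transcripts, with estimated counts then rounded. Genes were compared in R 4.3.3 by the quasi-likelihood test of edgeR 4.0.16 with TMM scaling, filterByExpr and Benjamini-Hochberg adjustment over all genes tested, at a threshold of 0.1. The unstimulated genotypes used 9 libraries and 13152 genes, and the other comparisons a 4-group model of 13 libraries and 14241 genes. Standard errors come from the fold change and the F statistic. Ratios of TPM were compared on the log2 scale by an exact permutation test in scipy 1.17.1 (Python 3.11.15).

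Members and lists were chosen with earlier results of these data known. Named throughout are Psmb5 to Psmb10, Psme1 and Psme2, with the 5 largest changes per direction in each comparison, Pomp, Nfe2l1, the largest changes of the pathway list, and Irf1, Tap1 and Tap2. Results of some listed genes are not reported here. Psmc2, Psmd4, Psmd10, Psme4, Psmg1, Psmc3ip, Nlrc5, Irf8 and B2m were named after their values were seen. Promoter windows are those of RefSeq.

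Alternatives were DESeq2 1.42.0, other scalings and filters, effective-length offsets, protein-coding genes alone, a threshold of 0.05, date, Y-linked transcripts or mouse number as a factor, subsets of libraries, and leaving out each mouse. The sum of Psme2 and Psme2b and the restriction to protein-coding transcripts were added after seeing the data. Mouse numbers are those of the titles. The file names number some mice otherwise and repeat numbers of unstimulated mice in stimulated libraries, so that it is open whether any mouse gave both, and pairing between them was not tested. Whether equal mouse numbers in both genotypes mark littermates is not stated, and the main comparisons did not treat such mice as pairs. On simulated data 200 genes, drawn from all genes that passed the filter and not from the members, were changed 2-fold. Of these edgeR recovered 165 between unstimulated genotypes, 97 between stimulated ones, 138 and 139 for stimulation in control and CtslΔTEC cells, and 111 for the interaction. False calls numbered 19, 8, 13, 7 and 10 in the same order.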

Additional observations from a re-analysis of the deposited data

Results flagged for a closer look

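The response of 2 immunosubunits to stimulation differed between genotypes by the interaction test of edgeR, 4.08% of the 49 members against 4.88% of all genes lower. The log2 response of CtslΔTEC cells minus that of control cells was -1.09 for Psmb10 and -0.70 for Psmb8. The Psmb8 call was lost without control mouse 1, control mouse 5 or CtslΔTEC mouse 6 (edgeR adjusted p = 0.106, 0.273 and 0.232). With mouse number as a block neither Psmb10 nor Psmb8 passed (edgeR adjusted p = 0.244 and 0.460).

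In 9 of the 104 gene or ratio groups of 4 or 5 unstimulated mice, 1 mouse lay far from the others by Dixon's criterion, which chance alone meets in about 1 in 20 groups. In CtslΔTEC mouse 1, Psma5 was at 46.1 CPM (54.1 to 57.0 in the other 4 mice), Psma6 at 65.3 CPM (74.5 to 76.8), Psmd14 at 48.6 CPM (53.9 to 55.8) and Psmd9 at 25.6 CPM (19.5 to 20.5). In CtslΔTEC mouse 3, Psmb2 was at 35.03 CPM (38.0 to 39.1). In control mouse 4, Psmd7 was at 66.2 CPM (56.4 to 57.2 in the other 3 mice), Psme1 at 188.2 CPM (169.5 to 170.4), Psmg3 at 11.2 CPM (8.84 to 9.22) and the Psmb9 to Psmb6 ratio at 0.371 (0.432 to 0.443).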

How the results depend on the processing

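Leaving out each mouse in turn gave 39 to 44 members called in control and 41 to 45 in CtslΔTEC cells, and 26 or more of the 31 core and regulatory subunits still rose under every alternative. Scaling by library totals moved the median of all genes in CtslΔTEC cells from -0.06 to -0.21 on the log2 scale, with 38 members higher and 7 lower. Genotype counts were small and moved. Without stimulation the 4 calls became 0 with the Y-linked covariate, 1 with the replicate block by mouse number, 1 without control mouse 2, and 2 without control mouse 3 or 4 (1 to 4 over the 9 left out mice). After stimulation the 3 calls became 1 with the block, 1 without CtslΔTEC mouse 6 or control mouse 5, and 9 without control mouse 6, of which 5 were core or regulatory subunits (1 to 9 overall). The 2 interaction calls became 0 with the block, 1 at a threshold of 0.05, and 1 without control mouse 1, CtslΔTEC mouse 6 or control mouse 5 (1 to 3 overall). Correlations of same-numbered mice 1 to 4 were -0.21, 0.44, -0.12 and -0.21, and only mouse 2 shared a file date between genotypes. Pairing and date can thus not be told apart here. The block gave -1.03 for the Psmb10 interaction (edgeR adjusted p = 0.244). On the second date alone the Psmb8 to Psmb5 difference was 0.41 and the Psmb9 to Psmb6 difference 0.29 (exact adjusted p = 0.15 for both, since 3 against 3 mice cannot go below p = 0.1), and with protein-coding transcripts alone the latter was 0.16. Leaving out single mice gave 0.35 to 0.40, 0.23 to 0.32 and, for Psmb10 to Psmb7, -0.12 to -0.03. For the genes named by the rule, and no others, 1099 of 1155 values under alternatives kept their side of the threshold, 55 fell below it and 1 rose above it. The sign differed for 43 values, none of which passed the threshold in the text or under the alternative, of genes whose reported log2 value was at most 0.16 in size, and no called value changed sign. The cause of these changes was not tested. The 8085463 counts of control mouse 5 and 2 mice per stimulated group limit the genotype comparison after stimulation.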
